A study of Mus musculus with 8 samples.

Results

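In 8 mouse hearts, 10 nuclear genes that set mitochondrial content and gene expression were followed. They encode the coactivators PGC-1α (Ppargc1a) and PGC-1β (Ppargc1b), the estrogen-related receptors ERRα (Esrra) and ERRγ (Esrrg), the transcription factors NRF-1 (Nrf1) and GABPα (Gabpa), and the mitochondrial transcription proteins Tfam, Tfb1m, Tfb2m and Polrmt. They are found by name, through the transcript accession of each array probe, by a rule that uses no measured value. The list of names itself was chosen with earlier results of these data known. These 10 genes are among 19987 named genes on the array, and 17 of its 39429 probes belong to them.

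The study compared 4 dtg hearts with 4 control hearts from male C57BL6 mice. The dtg mice were merCremer/+ IGFloxP/IGFloxP, that is, they carried a Cre recombinase that tamoxifen activates and floxed alleles of the IGF-1 receptor gene. The control mice carried Cre without the floxed IGF-1R. By the treatment protocol, which the labels give for every sample, 500 µg of 4OH-tamoxifen in 100 µl peanut oil was given on each of 10 days from an age of 8 months, to remove exon 3 of the receptor gene, and hearts were taken 6 weeks later. All hearts thus carried Cre and had tamoxifen, and there was no group without either. The sources used here do not give the promoter that drives merCremer. The RNA came from heart tissue with all its cell types, so fewer cells of a type and less RNA per cell cannot be told apart. Whether the samples are different animals is not stated in the labels. The p-values therefore reflect the spread among the samples alone, and that spread may be technical.

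PGC-1 coactivators do not bind DNA themselves. They dock on transcription factors such as the estrogen-related receptors, and the heart, which burns mostly fatty acids, holds high amounts of these receptors. Together they switch on genes for fatty acid oxidation, the citric acid cycle and the respiratory chain. NRF-1 and GABP act on many nuclear genes of the respiratory chain and on the genes for the mitochondrial transcription proteins. Polrmt is the RNA polymerase of mitochondria, Tfam bends and packs mitochondrial DNA at its promoters, and Tfb2m opens the DNA for the polymerase.

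The promoters of Ppargc1a, Tfam, Tfb2m and Polrmt are shown because these genes carry the widest spread and the pairs of correlated signals described further on. Each window runs from 250 bases before the RefSeq transcript start to 50 after it, 5′ to 3′ on the strand of the gene. All 4 genes lie on the minus strand of GRCm38.p6, at chr5:51567676-51567975 for Ppargc1a, chr10:71237995-71238294 for Tfam, chr1:179546227-179546526 for Tfb2m and chr10:79746532-79746831 for Polrmt. Capitals mark matches to the motifs searched on both strands.
Ppargc1a: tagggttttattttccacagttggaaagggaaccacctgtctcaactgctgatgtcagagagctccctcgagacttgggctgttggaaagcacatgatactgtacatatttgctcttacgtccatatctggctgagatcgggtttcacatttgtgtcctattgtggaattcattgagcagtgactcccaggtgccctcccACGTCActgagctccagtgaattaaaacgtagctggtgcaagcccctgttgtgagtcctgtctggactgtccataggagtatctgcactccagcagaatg
Tfam: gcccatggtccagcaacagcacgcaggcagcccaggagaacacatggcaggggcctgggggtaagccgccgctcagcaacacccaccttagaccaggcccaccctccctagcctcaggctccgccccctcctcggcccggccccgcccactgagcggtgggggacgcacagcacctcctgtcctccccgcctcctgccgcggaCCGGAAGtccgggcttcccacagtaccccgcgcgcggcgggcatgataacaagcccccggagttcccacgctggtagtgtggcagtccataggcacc
Tfb2m: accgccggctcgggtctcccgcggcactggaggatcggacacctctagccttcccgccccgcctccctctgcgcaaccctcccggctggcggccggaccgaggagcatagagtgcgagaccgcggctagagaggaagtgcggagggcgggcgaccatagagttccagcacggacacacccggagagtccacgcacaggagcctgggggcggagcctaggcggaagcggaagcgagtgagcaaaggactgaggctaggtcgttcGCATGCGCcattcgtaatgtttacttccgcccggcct
Polrmt: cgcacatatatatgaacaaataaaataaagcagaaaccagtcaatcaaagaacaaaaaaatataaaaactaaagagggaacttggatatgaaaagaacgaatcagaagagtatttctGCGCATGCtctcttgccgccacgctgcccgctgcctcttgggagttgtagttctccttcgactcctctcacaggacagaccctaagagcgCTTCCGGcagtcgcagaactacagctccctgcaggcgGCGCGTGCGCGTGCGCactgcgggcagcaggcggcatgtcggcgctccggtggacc
The Ppargc1a window holds the core of a CRE (TGACGT, read here as ACGTCA), the element that CREB binds, which 7.51% of all 32851 promoter windows hold. The Tfam window holds a GABP motif (CCGGAAG), found in 8.86% of windows. The Tfb2m window holds the NRF-1 core GCATGCGC just after the start, a string found in 2.71% of windows. The Polrmt window holds that core on the other strand, a GABP motif (CTTCCGG on this strand) and an NRF-1 palindrome (GCGCA and GCGC with any 1 base between them, in 4.60% of windows) that matches at 2 positions sharing bases around the start. Promoter windows were searched for 9 of the 10 genes, 13 windows in all. Ppargc1b was left out of this search, so nothing is said of its promoter. Among the genes not printed, Esrra has the NRF-1 core, Gabpa has a GABP motif and 1 window of Esrrg has a MEF2 motif (CTA and TAG with any 4 bases between them, in 3.69% of windows). The extended ERR site TCAAGGTCA, found in 0.423% of windows, was in none of the 13. These are matches of letters and show no binding.

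Levels are given as log2 processed signal minus the log2 of the same array's 75th percentile, so 0 is that percentile and each unit is a doubling. The level of a probe also depends on its sequence, and no level is set against that of another gene. The 75th percentile lay between 738.0 and 1027 intensity units over the 8 arrays, and 59.1% to 71.4% of probes were well above background. Arrays correlated with each other at r between 0.973 (dtg 4 with control 3) and 0.995. The closest other array stood at r = 0.995 for 5 hearts, but at 0.984 for dtg 3, 0.988 for dtg 4 and 0.984 for control 4. The arrays sat on 2 slides, each with 2 dtg and 2 control hearts. Of 9 cardiomyocyte markers, 9 were well above background on all 8 arrays, with a mean level of 7.76 to 7.95 in dtg hearts and 7.78 to 7.86 in control hearts. Igf1r, the targeted gene, had levels of -0.41, -0.33, 0.057 and 0.31 in dtg hearts, against 0.059, 0.096, 0.26 and 0.92 in control hearts. The groups overlapped, and the difference of -0.43 (SE 0.24) had a limma p of 0.113 before adjustment and 1 after it. The single Igf1r probe could not be placed inside or outside the deleted exon here, and it therefore does not check the labels.

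None of the 10 regulators passed the test between dtg and control hearts. All 17 probes were well above background on all 8 arrays. Of the members, 7 had a higher and 3 a lower mean in dtg hearts, with differences between -0.26 and 0.16 on the log2 scale and a median of 0.062. With each array scaled to its median instead, 5 were higher and 5 lower, with a median of -0.023 for the members and -0.065 for all features. Over all 21412 genes and unnamed features tested, limma with Benjamini-Hochberg adjustment called 0 at 0.05, which is 0%, and the median difference was 0.019. Before adjustment, 162 features (0.757%) had a p under 0.05, 134 of them (0.626%) with a positive difference and 28 (0.131%) with a negative one. Of the 10 members, 0 did. In 113 features (0.528%) the groups did not overlap, and again in 0 of the 10. Of all features, 57% had a difference above 0.

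**Figure D1:**
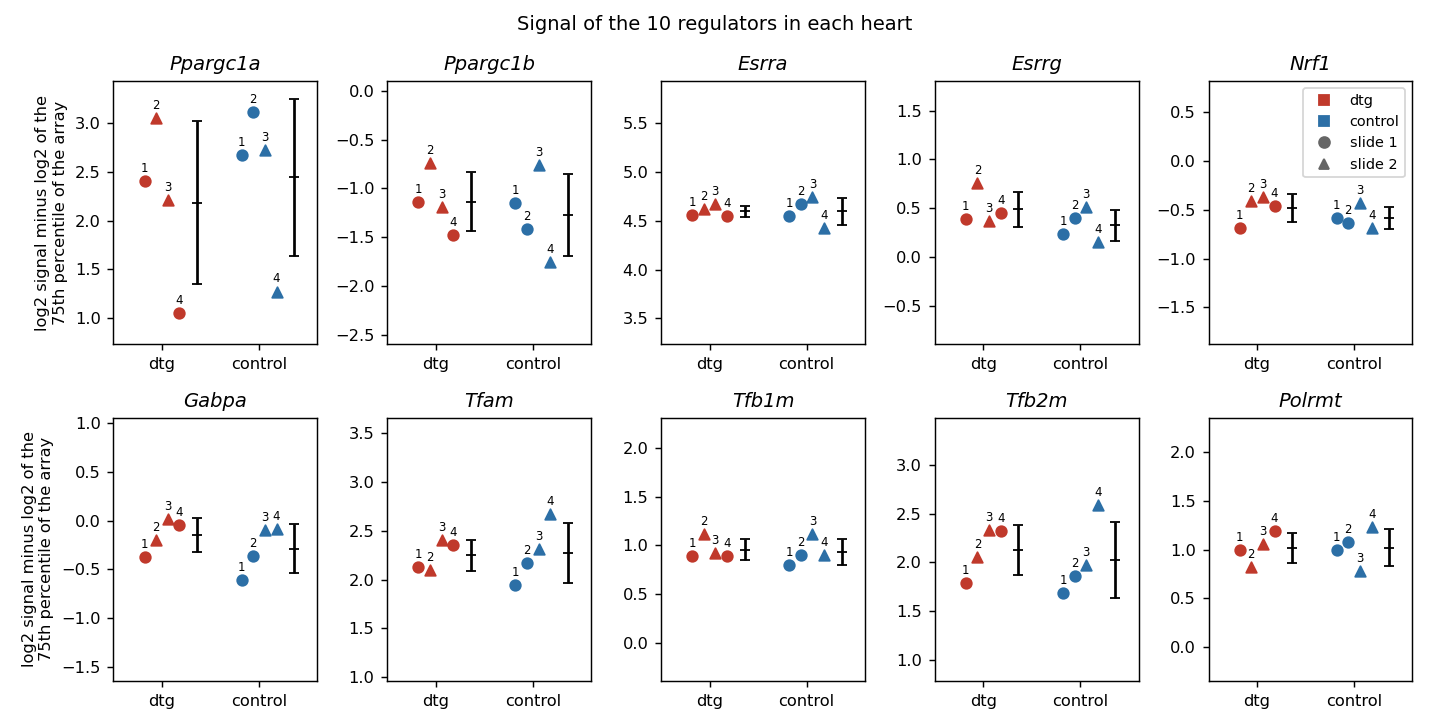
Level of each of the 10 regulators (log2 signal minus log2 of the array's 75th percentile) in 4 dtg and 4 control hearts, numbered by heart, with circles for slide 1, triangles for slide 2 and bars for the mean ± SD. Ppargc1a runs from 1.05 to 3.11 with low points in both groups, while Esrra stays between 4.43 and 4.74.

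Ppargc1a, the inducible coactivator, varied more than any of the other members. Its level was 2.41, 3.06, 2.21 and 1.05 in dtg hearts, against 2.68, 3.11, 2.72 and 1.27 in control hearts. The 2 lowest hearts, dtg 4 and control 4, came 1 from each group, and the lowest and highest hearts stood 4.17-fold apart. The means were 2.18 ± 0.83 in dtg hearts and 2.45 ± 0.81 in control hearts (SD, n = 4 each), and the difference of -0.26 (SE 0.51, 95% interval -1.43 to 0.91) did not pass the test (adjusted p = 1 by limma). The residual SD of this probe was above that of 91.6% of features.

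The sign of the Ppargc1a difference rested on single hearts. It was 0.11 without dtg 4 and -0.65 without control 4. On slide 1, which held dtg 1, dtg 4, control 1 and control 2, it was -1.16, and on slide 2 it was 0.64. The hearts with the lowest Ppargc1a also stood at the high end for atrial markers, whose mean level was 2.16, 0.45, 0.83 and 2.87 in dtg hearts and 1.98, 0.71, 2.79 and 3.1 in control hearts. Control 3 had a high atrial level as well, with Ppargc1a at 2.72. Of 7 atrial markers, 6 had a lower mean in dtg hearts, with a median difference of -0.62, and 0 of them passed the test. The part of atrial tissue in the Ppargc1a values was not tested.

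A second Ppargc1a probe did not show this spread. Its level was -0.35, -0.60, -0.42 and -0.38 in dtg hearts, against -0.48, -0.12, -0.52 and -0.53 in control hearts. The whole range was 1.39-fold and the difference was -0.020 (SE 0.13). Over the 8 hearts the 2 probes correlated at r = 0.15 (exact permutation p = 0.735) and rho = 0 (p = 1). With r = 0.12 after control 4 and dtg 4 were left out, the relation was no closer. The sources used here do not say which transcripts of the gene each probe reads.

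**Figure D2:**
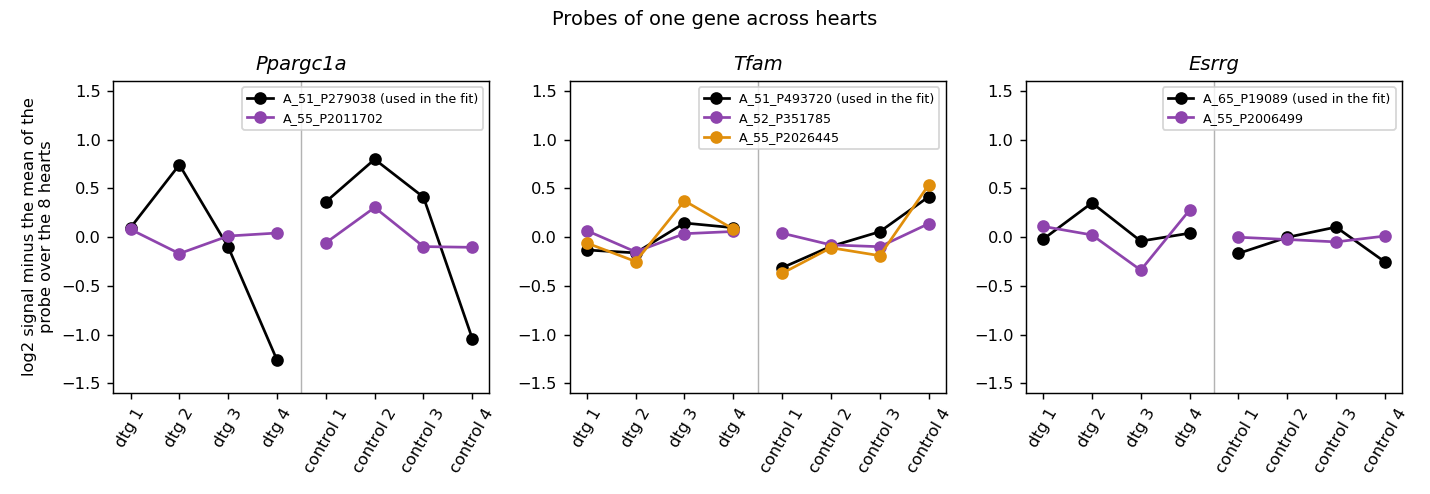
Level of each probe of Ppargc1a, Tfam and Esrrg in single dtg and control hearts, as log2 signal minus that probe's own mean over the 8 hearts, with 1 line per probe. The Ppargc1a probe used in the fit drops in dtg 4 and control 4 (4.17-fold range) and the other Ppargc1a probe does not (1.39-fold range).

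Ppargc1b, the related coactivator, had levels of -1.14, -0.74, -1.19 and -1.48 in dtg hearts, against -1.15, -1.42, -0.76 and -1.75 in control hearts. The highest hearts were dtg 2 and control 3 and the lowest was control 4, so the groups overlapped throughout their range. The means were -1.14 ± 0.30 in dtg hearts and -1.27 ± 0.42 in control hearts (SD, n = 4 each), a difference of 0.13 (SE 0.24, 95% interval -0.41 to 0.68). Without control 4 it was -0.027.

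Esrra, the receptor through which PGC-1α drives many oxidative genes, was among the steadiest genes measured when scaled to the 75th percentile. Without scaling, its processed signal had a range of 1.73-fold. Its level was 4.56, 4.62, 4.67 and 4.55 in dtg hearts, against 4.55, 4.68, 4.74 and 4.43 in control hearts. The lowest and highest hearts were both controls and were 1.24-fold apart. The means of 4.60 ± 0.056 in dtg hearts and 4.60 ± 0.14 in control hearts (SD, n = 4 each) differed by 0.00085 (SE 0.10). The 95% interval of that difference, -0.24 to 0.24, is narrow beside that of Ppargc1a, and the residual SD of Esrra exceeded that of 6.34% of features.

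Esrrg, the estrogen-related receptor known for oxidative muscle and the maturing heart, had the largest positive difference of the 10. Its level was 0.38, 0.76, 0.36 and 0.45 in dtg hearts, against 0.24, 0.40, 0.51 and 0.15 in control hearts. Dtg 2 was the highest heart and control 4 the lowest, and 2 controls lay above the lowest dtg heart. The means were 0.49 ± 0.18 in dtg hearts and 0.33 ± 0.16 in control hearts (SD, n = 4 each), with a difference of 0.16 (SE 0.13, 95% interval -0.15 to 0.47) that had a limma p of 0.26 before adjustment. Without dtg 2 it was 0.073. A second Esrrg probe gave 0.034 (SE 0.14), with dtg 4 highest and dtg 3 lowest.

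Nrf1, a DNA-binding activator of respiratory chain genes, had levels of -0.68, -0.41, -0.37 and -0.46 in dtg hearts, against -0.58, -0.64, -0.43 and -0.69 in control hearts. Dtg 1 lay as low as the lowest control, and the other 3 dtg hearts lay close to or above the highest control. The means were -0.48 ± 0.14 in dtg hearts and -0.58 ± 0.11 in control hearts (SD, n = 4 each), and the difference of 0.10 (SE 0.11, 95% interval -0.16 to 0.36) did not pass the test. Its 2 dimmer probes disagreed. One of them read -3.70, -3.59, -2.77 and -3.23 in dtg hearts, against -3.52, -3.74, -4.0 and -3.95 in control hearts. On that probe the difference was 0.48 (SE 0.22) with a limma p of 0.058 before adjustment and 1 after adjustment over all 26095 probes kept. The remaining probe gave -0.084 (SE 0.14).

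Gabpa, the DNA-binding subunit of GABP, had levels of -0.37, -0.19, 0.018 and -0.043 in dtg hearts, against -0.61, -0.36, -0.095 and -0.082 in control hearts. The 2 highest hearts were dtg 3 and dtg 4 and the lowest was control 1. The difference of 0.14 (SE 0.16, 95% interval -0.22 to 0.50) did not pass the test, and a second Gabpa probe gave -0.11 (SE 0.10). Single hearts moved the difference, to 0.031 without control 1 and 0.21 without dtg 1.

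**Figure D3:**
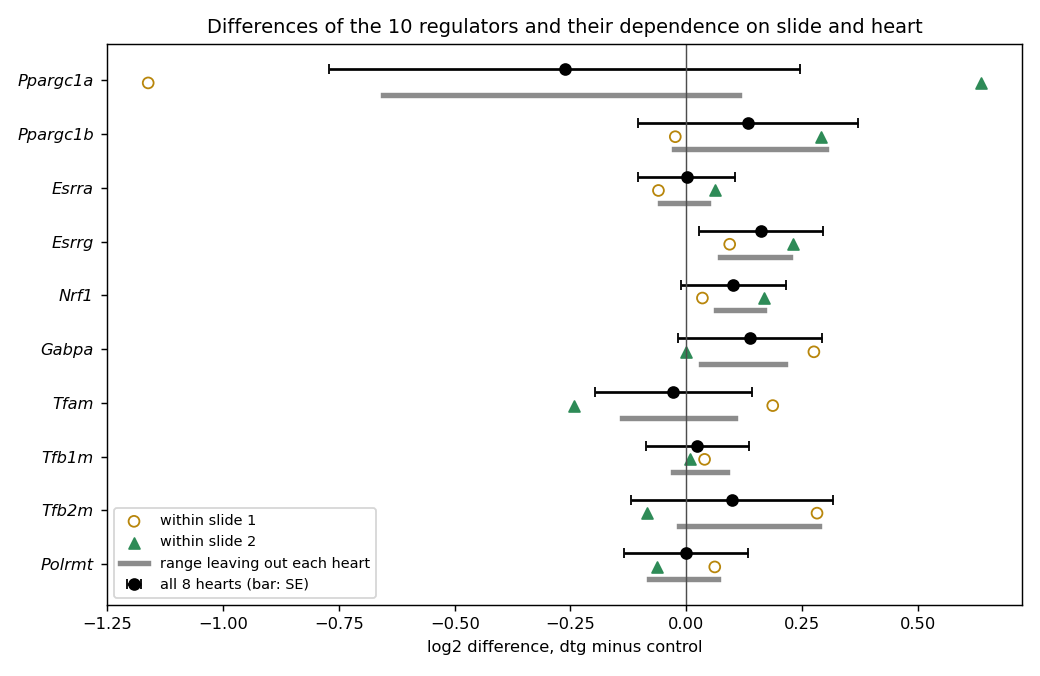
Difference between dtg and control hearts (log2, dtg minus control) for the 10 regulators, with limma's standard error, the values within each slide (open circles slide 1, triangles slide 2) and, as grey bars, the range when each heart is left out in turn. Ppargc1a, at -0.26, has the widest error and lies at -1.16 on slide 1 and 0.64 on slide 2, while Esrra and Polrmt sit near 0.

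The genes of the mitochondrial transcription machinery, Tfam, Tfb2m, Tfb1m and Polrmt, did not pass the test either. Tfam had levels of 2.13, 2.10, 2.41 and 2.36 in dtg hearts, against 1.95, 2.17, 2.32 and 2.67 in control hearts. Both the lowest and the highest heart were controls. The means were 2.25 ± 0.16 in dtg hearts and 2.28 ± 0.31 in control hearts (SD, n = 4 each), a difference of -0.028 (SE 0.17, 95% interval -0.42 to 0.36). It was 0.10 without control 4, and 0.19 on slide 1. The other 2 Tfam probes gave 0.0021 (SE 0.11) and 0.070 (SE 0.22). The brighter of these and the probe used here moved together over the hearts, with r = 0.91 (exact permutation p = 8.7e-04, 0.0078 after adjustment over 9 probe pairs) and rho = 0.90 (adjusted p = 0.041), and with r = 0.73 after control 1 and control 4 were left out.

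Tfb2m had levels of 1.79, 2.05, 2.33 and 2.32 in dtg hearts, against 1.68, 1.86, 1.97 and 2.58 in control hearts. Control 4 was the highest heart and control 1 the lowest, as for Tfam. The difference was 0.099 (SE 0.22, 95% interval -0.40 to 0.60), and it was 0.29 without control 4 and -0.015 without control 1. Tfb1m, which methylates mitochondrial ribosomal RNA, had levels of 0.89, 1.12, 0.93 and 0.89 in dtg hearts, against 0.80, 0.90, 1.12 and 0.90 in control hearts. The highest hearts were control 3 and dtg 2, both on slide 2, and the difference was 0.024 (SE 0.11, 95% interval -0.23 to 0.28).

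Polrmt had levels of 1.0, 0.82, 1.06 and 1.20 in dtg hearts, against 0.99, 1.08, 0.78 and 1.23 in control hearts. The highest hearts were control 4 and dtg 4, and the lowest was control 3. The means of 1.02 ± 0.15 in dtg hearts and 1.02 ± 0.19 in control hearts (SD, n = 4 each) differed by -0.00084 (SE 0.13, 95% interval -0.31 to 0.31).

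None of the members passed a test between the slides either. Between slide 2 and slide 1, 2212 of 21412 features (10.3%) passed an adjusted p of 0.05 in limma with genotype in the fit, and 0 of the 10 members did. The smallest adjusted p among the members was 0.334, for Gabpa, which was 0.26 higher on slide 2. Tfb1m was the one member whose hearts did not overlap between the slides, against 17.4% of features.

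Of the 45 pairs of members, 2 had a correlation over the 8 hearts that passed adjustment. Tfam and Tfb2m varied together, with r = 0.92 (exact permutation p = 0.00136, adjusted p = 0.0307) and rho = 0.86 (adjusted p = 0.121). Without control 1 and control 4, which are the lowest and the highest heart for both genes, r was 0.77. It was 0.94 after the group means were subtracted and 0.88 after the slide means were subtracted. The pair did not pass adjustment with quantile normalization (r = 0.86, adjusted p = 0.0829), in the authors' deposited table (r = 0.86, adjusted p = 0.0859) or with a normexp background without dark spots (r = 0.87, adjusted p = 0.0988). As background, 2.56% of 21383 features had an r with Tfam at least as high, and 3.49% had one with Tfb2m.

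**Figure D4:**
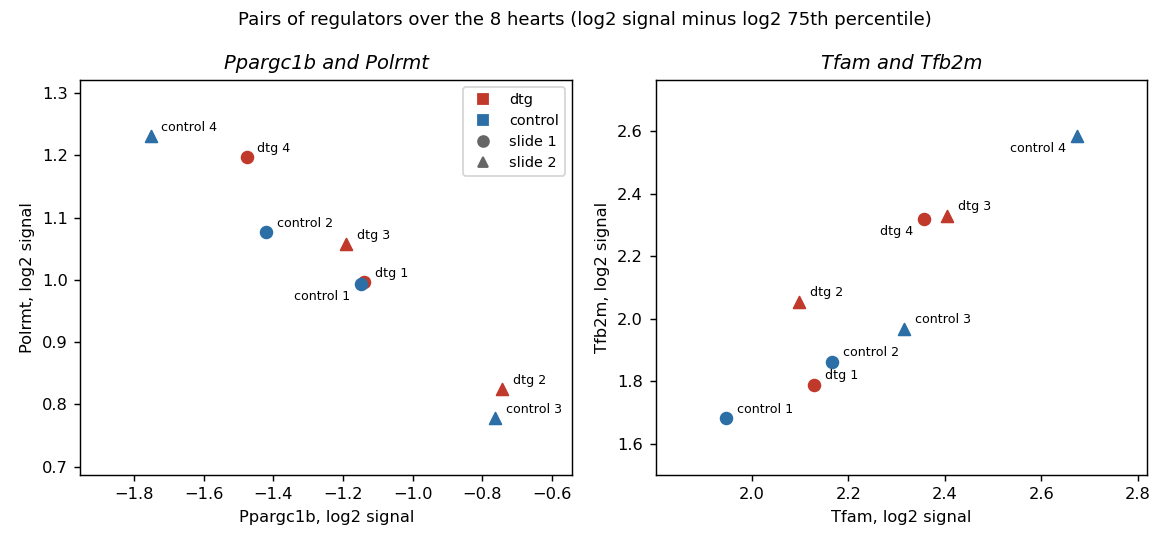
Single dtg and control hearts for Ppargc1b with Polrmt (left, r = -0.97) and Tfam with Tfb2m (right, r = 0.92), each axis as log2 signal minus log2 of the array's 75th percentile, with circles for slide 1 and triangles for slide 2. Both pairs lie along a line, and under median scaling the left pair has r = -0.071.

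Ppargc1b and Polrmt ran opposite to each other, with r = -0.97 (exact permutation p = 9.92e-05, adjusted p = 0.00446) and rho = -0.95 (adjusted p = 0.0513), and with r = -0.97 without control 4 and dtg 2. Of all features, 0.0748% had an r with Ppargc1b at least as low, and 0.178% had one with Polrmt. Positive correlations of that size were not counted. The pair also passed adjustment with quantile normalization (r = -0.97, adjusted p = 0.0313) and in the authors' deposited table (r = -0.97, adjusted p = 0.0212). It passed with normexp on all spots (r = -0.96, adjusted p = 0.00558) and without dark spots (r = -0.98, adjusted p = 0.0067). After group means were subtracted r was -0.99, and after slide means were subtracted -0.97. It did not pass under median scaling. When each array was scaled to its median instead of its 75th percentile, r was -0.071 (adjusted p = 0.858). Before any scaling, the processed signal of Polrmt lay between 1717 and 1871 intensity units in the 8 hearts, a range of 1.09-fold. Its scaled level had an r of -0.97 with the log2 of the 75th percentile, Ppargc1b one of 0.93 and Ppargc1a one of 0.85. After control 3 and control 4 were left out, these were -0.93, 0.84 and 0.85. That percentile is subtracted in each level, so level and percentile are not independent. A signal as flat as that of Polrmt falls with the percentile by construction. These r values therefore carry no test. Tfam and Tfb2m kept r = 0.95 (adjusted p = 0.0067) under median scaling. Under that scaling several other pairs of members were close too, such as Esrra with Tfb1m (r = 0.97) and Tfam with Polrmt (r = 0.91). How many of all features are as close under median scaling was not counted.

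The partners through which the coactivators and receptors act were given by a list of 26 genes, all of them measured. Of these, 18 had a higher and 8 a lower mean in dtg hearts, 0 passed the test, and the median difference was 0.043, against 0.019 over all features. Under median scaling 9 were higher and 17 lower, with a median of -0.041, against -0.065 over all features. The smallest unadjusted p values were those of Esrrb, the third estrogen-related receptor, at 0.17 (SE 0.12), Gabpb1, the partner subunit of Gabpa, at 0.12 (SE 0.090), Mef2d, a muscle transcription factor, at -0.17 (SE 0.13), and Gabpb2, another GABP β subunit, at 0.36 (SE 0.34), or 0.029 without control 4. Esrrb had levels of 2.23, 2.35, 2.42 and 2.41 in dtg hearts, against 2.02, 2.04, 2.33 and 2.32 in control hearts. The dtg hearts were on the high side, but dtg 1 lay below 2 of the controls.

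**Figure D5:**
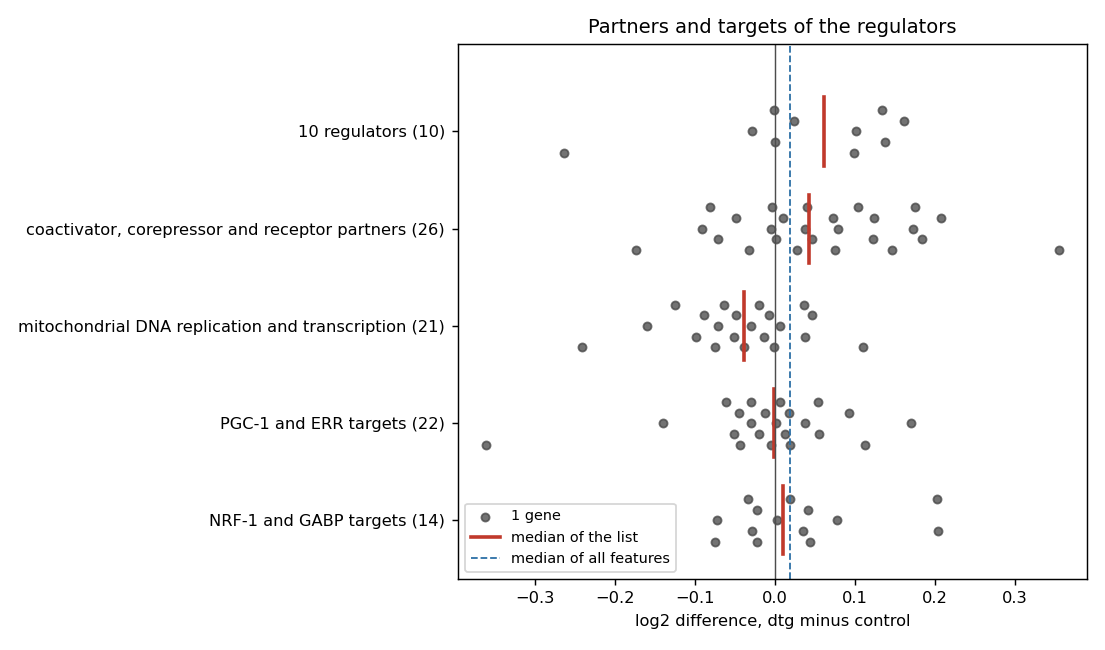
Difference (log2, dtg minus control) of each measured gene in the 10 regulators and in 4 lists of their partners and targets, with the median of each list and that of all features. The medians lie between -0.039 and 0.062, and no gene shown passed the test.

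Genes that copy and transcribe mitochondrial DNA had mostly negative differences, but that split turned with 1 heart, 1 slide and the processing. Of 21 measured genes of 22 listed, 5 had a higher and 16 a lower mean in dtg hearts, 0 passed the test, and the median was -0.039. Under median scaling 1 was higher and 20 lower (median -0.12), and with normexp on all spots 12 were higher and 9 lower (median 0.027). The median of all features was -0.065 and -0.045 under these settings. Without control 4 the split of the list was 12 and 9 (median 0.0065), and with array weights 12 and 9 (median 0.036). Within slide 1 it was 15 higher and 6 lower (median 0.067), and within slide 2 it was 2 and 19 (median -0.15). Polg, the mitochondrial DNA polymerase, differed by -0.089 (SE 0.093), Lrpprc, which stabilizes mitochondrial messenger RNA, by -0.13 (SE 0.15), Mterf3, a repressor of mitochondrial transcription, by -0.099 (SE 0.15), and Mterf1b by -0.24 (SE 0.40). Each of these differences is within about 1 standard error of 0. Single hearts moved them, Lrpprc to -0.0058 without dtg 3 and -0.22 without dtg 2, Mterf3 to -0.018 without dtg 2 and -0.19 without dtg 4, and Mterf1b to 0.12 without dtg 1 and -0.48 without dtg 3. The list of 15 transcripts encoded by mitochondrial DNA itself was matched to no probe.

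Targets of PGC-1 and the ERRs were evenly split. Of 22 genes, 11 had a higher and 11 a lower mean in dtg hearts, with a median of -0.0013 and 0 past the test. This split has no settled direction, since it was 3 higher and 19 lower under median scaling (median -0.085), 6 and 16 with quantile normalization (median -0.021), and 21 and 1 with normexp on all spots (median 0.26). The median of all features was -0.065, -0.012 and -0.045 under these settings, in the same order. The split of the targets was 17 and 5 within slide 1 (median 0.066) and 6 and 16 within slide 2 (median -0.057). The mean level of the list was 6.43, 6.40, 6.45 and 6.43 in dtg hearts, against 6.34, 6.40, 6.49 and 6.52 in control hearts, so the dtg hearts lay inside the range of the controls. Mfn2, which fuses mitochondria, differed by 0.17 (SE 0.11), the creatine kinase Ckmt2 by 0.093 (SE 0.090) and the uncoupling protein Ucp3 by -0.14 (SE 0.14). Pdk4, the kinase that holds back glucose oxidation, had levels of 4.4, 3.18, 3.89 and 3.58 in dtg hearts, against 3.49, 3.89, 4.51 and 4.61 in control hearts. Its difference of -0.36 (SE 0.33) was 0.30 on slide 1 and -1.03 on slide 2.

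Of 14 targets of NRF-1 and GABP, 8 had a higher and 6 a lower mean in dtg hearts, with a median of 0.011 and 0 past the test. The split was 2 higher and 12 lower under median scaling (median -0.073), 4 and 10 with quantile normalization (median -0.032), and 13 and 1 with normexp on all spots (median 0.27). For all features the medians were -0.065, -0.012 and -0.045 under these settings, in the same order. The split of this list was 12 and 2 within slide 1 (median 0.089) and 5 and 9 within slide 2 (median -0.045). Cox4i1, a subunit of cytochrome oxidase, differed by 0.20 (SE 0.20), the assembly factor Surf1 by 0.078 (SE 0.10), Alas1, the first enzyme of heme synthesis, by -0.074 (SE 0.10), and the copper chaperone Cox17, well above background on 5 arrays, by 0.20 (SE 0.32). The Cox17 difference was -0.0039 without dtg 2 and 0.40 without dtg 3.

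The regulators were also set against their targets over the hearts. Of 66 correlations between Ppargc1a, Esrra or Esrrg and the 22 PGC-1 and ERR targets, 0 passed (smallest adjusted p 0.307, exact permutation). Positive values were 6 of 22 for Ppargc1a, 9 for Esrra and 9 for Esrrg, where 40.1%, 41.4% and 40.4% of all features were positive. Under median scaling the positive values were 13, 22 and 22, so their sign changed with the scaling. The share of all features that was positive under median scaling was not computed, so these counts have no background.

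The genes whose levels were most like that of Ppargc1a over the 8 hearts were Them4 (r = 0.99), Dnajc28 (r = 0.99) and Nsf (r = 0.99), out of 13347 genes. For Esrra they were Cdc37l1 (r = 0.94), Chd8 (r = 0.93) and Car15 (r = 0.92), and for Esrrg Adh1 (r = 0.97), Slc25a13 (r = 0.96) and Klf7 (r = 0.94). These are the highest values among many genes over few hearts and carry no test. Nsf, for example, had levels of -0.48, 0.26, -0.66 and -1.34 in dtg hearts, against -0.067, 0.17, -0.10 and -1.22 in control hearts, low in dtg 4 and control 4 as Ppargc1a was.

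Clock genes are given because they follow the time of day and Ppargc1a is known to interact with the clock. Of 11 measured, 8 had a higher and 3 a lower mean in dtg hearts, with a median of 0.41, and 0 passed the test. The split was the same under median scaling and quantile normalization, and 6 and 5 with normexp on all spots. The slides differed, with 7 higher and 4 lower within slide 1 (median 0.99) and 5 and 6 within slide 2 (median -0.027), and without control 1 the median was 0.19. Dbp, a clock output factor, had levels of 4.28, 4.50, 4.80 and 5.37 in dtg hearts, against 2.23, 2.95, 4.50 and 4.86 in control hearts, and Arntl, the clock activator, -0.20, -0.42, -0.52 and -1.34 in dtg hearts, against 0.69, 0.47, -0.37 and -0.67 in control hearts. Control 1 and control 2 had low Dbp with high Arntl. Ciart, a clock repressor that was well above background on 6 arrays, differed by 2.19 (SE 0.92) and Per3 by 0.41 (SE 0.26). The part of the hour of collection in the members' values was not tested.

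Markers of other cell types were measured beside the members. All 6 of 6 measured erythroid markers had a higher mean in dtg hearts, with a median of 0.43 and a mean level of 4.23 to 4.84 in dtg hearts and 3.87 to 4.67 in control hearts. Smooth muscle markers had a lower mean in dtg hearts in 4 of 4, with a mean level of 1.36 to 1.63 in dtg hearts and 1.59 to 1.91 in control hearts. Among them Acta2, smooth muscle actin, differed by -0.37 (SE 0.11), with limma's adjusted p = 1, and its groups did not overlap. Endothelial, fibroblast and adipocyte markers had a lower mean in 5 of 6 each, and leukocyte markers in 3 of 5. Of 7 skeletal muscle markers, 2 passed the filter, and Myh1, Myh2, Myh4, Actn3 and Mylpf did not. None of these markers passed the test, and their part in the members' values was not tested.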

How the data were processed

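RNA of 4 dtg and 4 control hearts was labelled with Cy3 from 100 ng and hybridised to 1-colour arrays, per the labels' protocols. For each array the authors deposited the scanner output, whose processed signal is a linear intensity. It was made with Agilent Feature Extraction 10.7.3.1 using local background, per the file headers. Their deposited table of log2 values matched quantile normalized log2 signal centred on each probe's median (r 0.9999 to 1). Its column medians were 0.00513, 0.0069, -0.0325 and -0.00939 for dtg 1 to 4 and -0.0153, -0.0169, 0.0323 and 0.0179 for control 1 to 4. The sources used here do not name the tool behind it.

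The 39429 probes were named by RefSeq accession (26369 matched, 13060 did not). Control spots and outlier spots were left out, and each array's 75th percentile was subtracted on the log2 scale. A probe was kept if well above background on at least 4 of 8 arrays, and the probe with the highest mean stood for its gene. Dtg minus control was tested with limma 3.58.1 (R 4.3.3, lmFit and eBayes, no covariates) and Benjamini-Hochberg adjustment over 21412 features. The number of arrays limits the precision. Correlations have exact permutation p values, two-sided. The test was also run on simulated data with independent noise for each feature. That simulation held no slide effect and no factor shared by an array, so it does not show how the test behaves on these arrays. Promoters are RefSeq's for GRCm38.p6, while the array annotation names mm9, so no array coordinates are given.

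The members and lists were chosen with earlier results of these data known. The text names all 10 members, Igf1r, the 4 genes of each list with the lowest unadjusted p (fewer where fewer were measured), and 3 genes most like Ppargc1a, Esrra and Esrrg. Esrrb, Pdk4, Nsf, Dbp and Arntl were picked from these for values by heart after they were seen. Alternatives covered background, scaling, filter, choice of probe, the authors' values, slide, replicate number, trend, array weights and leaving out each heart. Correlations with targets, and correlations under median scaling, normexp and the authors' values, were chosen after seeing the data. Normexp was run on the pixel median of each spot instead of the planned mean signal.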

Additional observations from a re-analysis of the deposited data

Results flagged for a closer look

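Of 76 measurements examined, 3 had 1 heart far from the others, each measurement being a gene or probe in the 4 hearts of 1 group. Chance gives about 1 in 20. On the second Ppargc1a probe, control 2 was at -0.12, while the other controls lay between -0.53 and -0.48. On the dimmest Tfam probe, dtg 2 was at -2.86, while the other dtg hearts lay between -2.67 and -2.64. For Gabpb2, the GABP β subunit, control 4 was at -4.06, while the other controls lay between -2.79 and -2.73, and without control 4 the difference was 0.029. The cause was not tested for any of the 3.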

How the results depend on the processing

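In limma, 0 features were called in the test as reported and under each of 23 alternatives, members and lists included, at 0.05 and at 0.1, with 13 (normexp) to 758 (array weights) at an unadjusted p under 0.05. Several differences changed direction, and the cause was not tested. With normexp the differences were -0.023 for Ppargc1b, -0.011 for Nrf1, 0.21 for Tfam, -0.17 for Gabpb2, 0.063 for Polg, 0.11 for Lrpprc, 0.027 for Mterf3, 0.041 for Ucp3, 0.28 for Alas1, -0.089 for Cox17 and -0.052 for Per3. That fit gave backgrounds of -462 for dtg 4 and -1740 for control 4, driven by spots darker than their local background, and without those spots Alas1 turned, at 0.019, Tfb1m was -0.0013 and Esrra -0.0028, so 5 members were higher and 5 lower. Cox17 was -0.13 with quantile normalization and -0.13 in the authors' values. Median scaling gave -0.060 for Tfb1m and -0.0061 for Surf1, and moved the median of all features to -0.065 and that of the members to -0.023. The mean of all probes gave 0.015 for Tfam, and array weights gave 0.078 for Tfam and 0.012 for Pdk4. Within slide 1 the values were -0.024 for Ppargc1b, 0.19 for Tfam, 0.042 for Mterf3 and 0.30 for Pdk4, and within slide 2 they were 0.64 for Ppargc1a, -0.084 for Tfb2m, -0.027 for Dbp, 0.049 for Arntl and -0.20 for Per3. With slide as a block and dtg 3, dtg 4 and control 4 left out, Nrf1 was -0.035 and Gabpb2 -0.0060. Leaving out 1 heart at a time gave -0.65 to 0.11 for Ppargc1a, -0.027 to 0.30 for Ppargc1b, -0.14 to 0.10 for Tfam, -0.029 to 0.087 for Tfb1m, -0.015 to 0.29 for Tfb2m, 0.031 to 0.21 for Gabpa, -0.22 to -0.0058 for Lrpprc, -0.19 to -0.018 for Mterf3, -0.0039 to 0.40 for Cox17 and -0.48 to 0.12 for Mterf1b. It also moved differences that kept their sign by over 1.5 times, among them -0.56 to -0.23 for Igf1r, 0.073 to 0.22 for Esrrg, 0.064 to 0.17 for Nrf1, 0.029 to 0.50 for Gabpb2, -0.57 to -0.17 for Pdk4, 0.079 to 0.34 for Cox4i1 and 0.64 to 1.51 for Dbp. The number of correlated pairs of members, 2 as reported, was 8 with slide means subtracted, 13 with median scaling, 9 with normexp, and 1 each with normexp without the dark spots, with quantile normalization and in the authors' values. Same-numbered hearts correlated in their deviations at 0.54, -0.54, 0.15 and 0.16 for numbers 1 to 4. Numbers 2 and 4 lay on different slides, so these values do not settle whether the replicate numbers pair the samples. With the replicate number as a block in limma, 0 features were called and 279 had an unadjusted p under 0.05.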
